A study of Mus musculus with 8 samples.

Results

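The 10 genes described here are markers of macrophages and of microglia, the macrophages of the brain: C1qa, C1qb, C1qc, Csf1r, Cx3cr1, Trem2, Tyrobp, Fcer1g, Ctss and Lyz2. They were chosen by name, with earlier results of these data known, from the 19938 genes that carry 1 gene symbol on the array platform. All 10 were found, each with 1 probe set. RNA was measured on 8 Affymetrix Mouse Gene 1.0 ST arrays from mice aged 3 months that carried the SCA17 knock-in (KI) or were wild type (WT). In spinocerebellar ataxia 17 (SCA17), TBP, which binds the TATA box, carries too long a run of glutamines. The arrays form 4 groups of 2. Cerebellum came from KI (replicates 94 and 97) and WT mice (95 and 96), and tibialis anterior (TA) muscle bore the same numbers. RNA of 3 mice per genotype is named in the study, and the table held 2 arrays for each genotype and tissue. No source used here gives the strain, the sex or the length of the glutamine run, nor says that the arrays of a group are separate mice, so the p values rest on the spread between arrays, which may be technical.

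Tissue macrophages and microglia live on signals through the receptor Csf1r, sense debris and lipids through receptors such as Trem2, and take in and digest what they bind. Several of their receptors have no signalling tail of their own and work through small adaptor proteins, Tyrobp (DAP12) and Fcer1g, whose cytoplasmic part carries an immunoreceptor tyrosine-based activation motif (ITAM). The same cells make the C1q chains that open the classical complement pathway, which in the brain marks synapses for removal. In whole tissue a lower level can mean fewer cells of a type or less RNA per cell, and the 2 cannot be told apart here.

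Promoter windows from RefSeq (assembly GRCm38.p6, 250 bases before to 50 bases after the start) were matched for 7 of the 10 genes, and 4 stretches are shown because they carry the core bound by PU.1, the ETS factor that directs macrophage genes, and in Ctss also the core of the interferon-stimulated response element. Capitals mark the matches, and each stretch is read 5′ to 3′ on the strand of its gene.
Ctss, chr3:95526726-95526791, plus strand: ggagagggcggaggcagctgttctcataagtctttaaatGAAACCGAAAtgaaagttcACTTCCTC
C1qb, chr4:136886201-136886255, minus strand: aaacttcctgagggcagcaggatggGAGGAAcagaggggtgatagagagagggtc
C1qc, chr4:136893080-136893134, minus strand: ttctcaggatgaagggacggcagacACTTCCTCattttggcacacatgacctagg
Trem2, chr17:48346336-48346390, plus strand: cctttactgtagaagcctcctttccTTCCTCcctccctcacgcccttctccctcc
The 6-letter core GAGGAA, searched on both strands, was held by 4 of the 7 windows and by 28.3% of all 32851 windows in the table. Its longer form GAGGAAGT, which contains the first, was held by Ctss and C1qc and by 3.20% of all windows. In Ctss the longer form lies on the opposite strand and spans the start of the gene. The response element core, GAAA, any 2 bases and GAAA again, searched on both strands, was held by Ctss alone among the 7, with its first base 21 bases before the start, and by 3.44% of all windows. Of the interferon-stimulated genes listed for comparison, 9 had a window and 6 of these held that core. The TATA box core TATAAA was also held by Ctss alone among the 7, far upstream on the opposite strand with its first base at 233 bases before the start, and by 13.6% of all windows. A match describes the letters of a window and shows no binding.

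**Figure D1:**
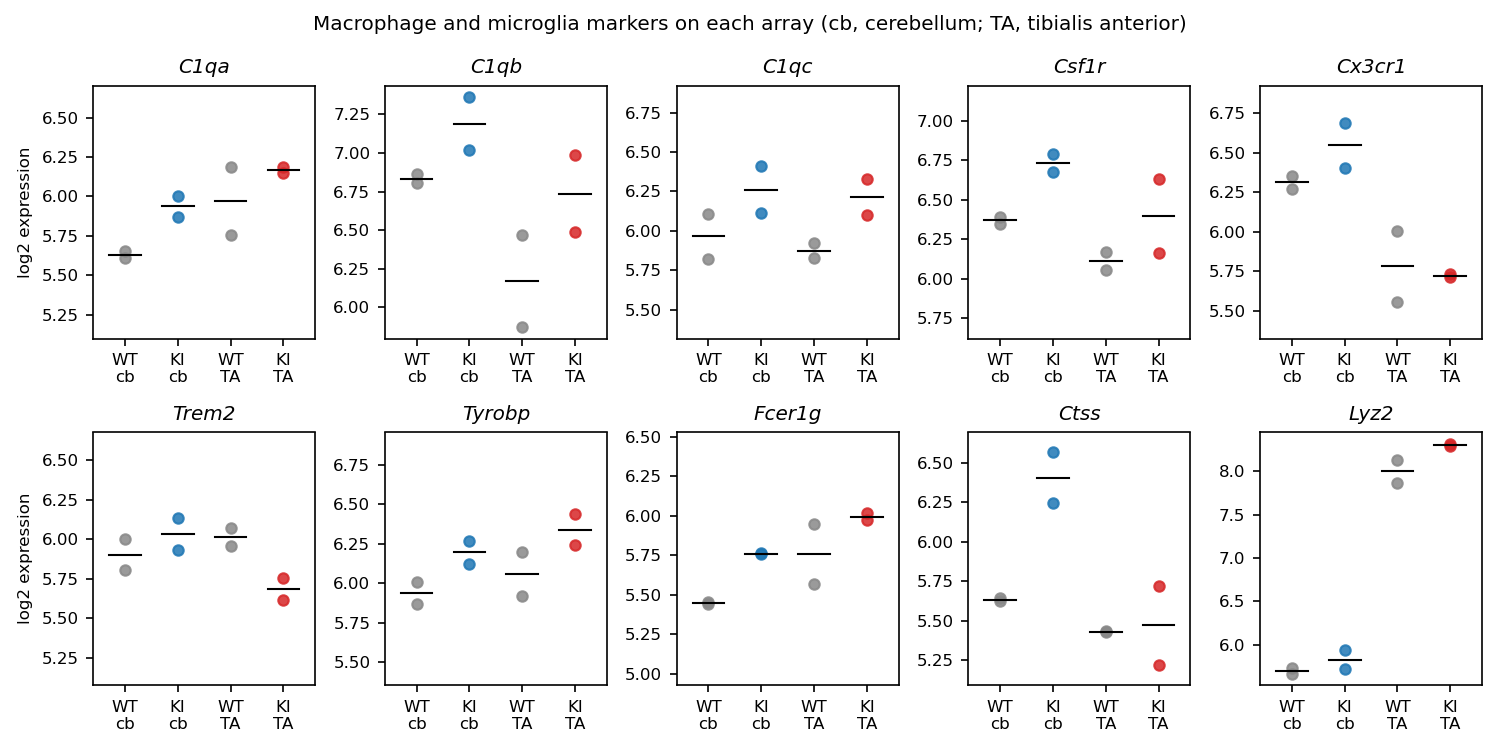
Log2 expression (vertical axes, whose range differs between panels) of the 10 markers on each of the 8 arrays, with 1 panel per gene and 1 point per array. Bars are means of 2 arrays, cb is cerebellum and TA is tibialis anterior muscle. Both KI cerebellum arrays of Ctss, at 6.57 and 6.24, lie above the WT arrays at 5.62 and 5.65, and Lyz2 lies at 7.86 or more on every muscle array and at 5.94 or less on every cerebellum array.

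All values are log2 expression values, on which a difference of 1 is a change of 2-fold. Array medians lay between 5.40 and 5.51, and each of the 10 markers reached the 40th percentile (between 4.96 and 5.05) on all 8 arrays, so all 10 passed the filter on low values in both tissues. On each array 9 or 10 of the 10 were above the median. Levels are compared only within a gene, since a probe set's brightness does not measure a gene's RNA against another gene's. By list means, defining genes matched the labelled tissues. The 6 listed genes of cerebellar neurons had mean levels from 10.29 to 10.93 in cerebellum and from 4.91 to 5.09 in muscle. The 6 listed genes of muscle fibres had means from 11.40 to 12.05 in muscle and from 5.38 to 5.65 in cerebellum. Single brain genes stood higher on KI muscle replicate 94 than on the other muscle arrays. Ttr of the choroid plexus was at 8.13 against 5.77 to 6.08, and the neuronal Snap25 at 7.28 against 5.57 to 6.32. Calb1, at 4.36, and Pcp2, at 5.46, did not stand higher there. The cause was not tested. A gene was called in a comparison when its limma p, adjusted by Benjamini and Hochberg over all genes tested, was under 0.05, and between tissues also when it changed at least 2-fold.

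The first comparison asked how the markers differ between KI and WT cerebellum, the brain region affected in SCA17. All 10 had higher means in KI, by 0.13 to 0.77 on the log2 scale (median 0.30, against -0.01 over all 13641 genes tested), and in 8 of the 10 both KI arrays were above both WT arrays. None was called (limma, smallest adjusted p = 0.263), where 0.205% of all genes were, and 3 had an unadjusted p under 0.05, as had 5.33% of all genes. Over all genes tested, 47.5% had a higher mean in KI and 15.3% had both KI arrays above both WT arrays. The markers and the lists below were chosen with earlier results of these data known. Their counts beside the shares of all genes are therefore a description and not a test, in either tissue.

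Ctss, the lysosomal protease cathepsin S that macrophages and microglia use to process antigens, had the largest difference of the 10. Its level was 6.57 and 6.24 on the KI cerebellum arrays 94 and 97, and 5.62 and 5.65 on the WT arrays 95 and 96. The groups did not overlap, and the gap between them was wider than the spread of either. The KI mean of 6.41 ± 0.23 was 1.71-fold above the WT mean of 5.63 ± 0.02 (SD, n = 2), a log2 difference of 0.77 ± 0.17 (SE; 95% interval 0.39 to 1.15; adjusted p = 0.263), and by p it was the 67th of all genes. Without KI replicate 94 the difference was 0.61, and without KI replicate 97 it was 0.93.

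The C1q chains A, B and C, which assemble into the recognition molecule of the classical complement pathway and lie side by side on chromosome 4, were each without overlap in cerebellum. C1qa was at 6.01 and 5.87 on the KI arrays and at 5.61 and 5.65 on the WT arrays (difference 0.31 ± 0.14, SE; adjusted p = 0.941). C1qb was at 7.36 and 7.02 against 6.86 and 6.80 (0.36 ± 0.22; adjusted p = 0.998). For C1qc the values were 6.41 and 6.11 against 6.11 and 5.82 (0.29 ± 0.15; adjusted p = 0.99), so that KI replicate 97 barely exceeded WT replicate 95. In each chain the higher KI value was that of replicate 94. Without it the difference was 0.187 for C1qb and 0.144 for C1qc, and that of C1qc was 0.445 without KI replicate 97 and 0.152 without WT replicate 96.

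Among the receptors, Csf1r, the receptor for the growth factors CSF1 and IL-34, was at 6.79 and 6.67 in KI and 6.39 and 6.34 in WT cerebellum (0.36 ± 0.15, SE; 95% interval 0.02 to 0.70; adjusted p = 0.901). Cx3cr1, the receptor through which microglia sense the neuronal chemokine fractalkine, was at 6.41 and 6.69 against 6.27 and 6.35 (0.24 ± 0.16; adjusted p = 0.998). Both were without overlap, but in Cx3cr1 the lower KI array and the higher WT array were close together. Trem2, a receptor for lipids and lipoproteins, was at 5.93 and 6.14 in KI and 5.81 and 5.9999 in WT, and its arrays overlapped (0.13 ± 0.12; adjusted p = 0.998). Single arrays moved the last 2 genes. The difference of Cx3cr1 was 0.379 without KI replicate 94 and 0.0946 without KI replicate 97. That of Trem2 was 0.234 and 0.0284 without those arrays, and 0.0348 and 0.228 without WT replicates 95 and 96.

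The adaptors behind such receptors were also separated. Fcer1g, the gamma chain shared by Fc receptors, was at 5.76 on both KI cerebellum arrays and at 5.46 and 5.44 on the WT arrays (0.31 ± 0.13, SE; adjusted p = 0.901). Tyrobp, the partner of Trem2, was at 6.12 and 6.27 in KI and 6.01 and 5.87 in WT (0.26 ± 0.13; adjusted p = 0.998). Lyz2, the macrophage lysozyme, was at 5.94 and 5.72 against 5.67 and 5.73 and overlapped (0.13 ± 0.13; adjusted p = 0.998), with a difference of 0.0203 without KI replicate 94 and 0.236 without KI replicate 97. KI replicate 94 gave the highest cerebellum value of 6 markers and KI replicate 97 that of the other 4, while every lowest value was on a WT array, 5 on each.

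**Figure D2:**
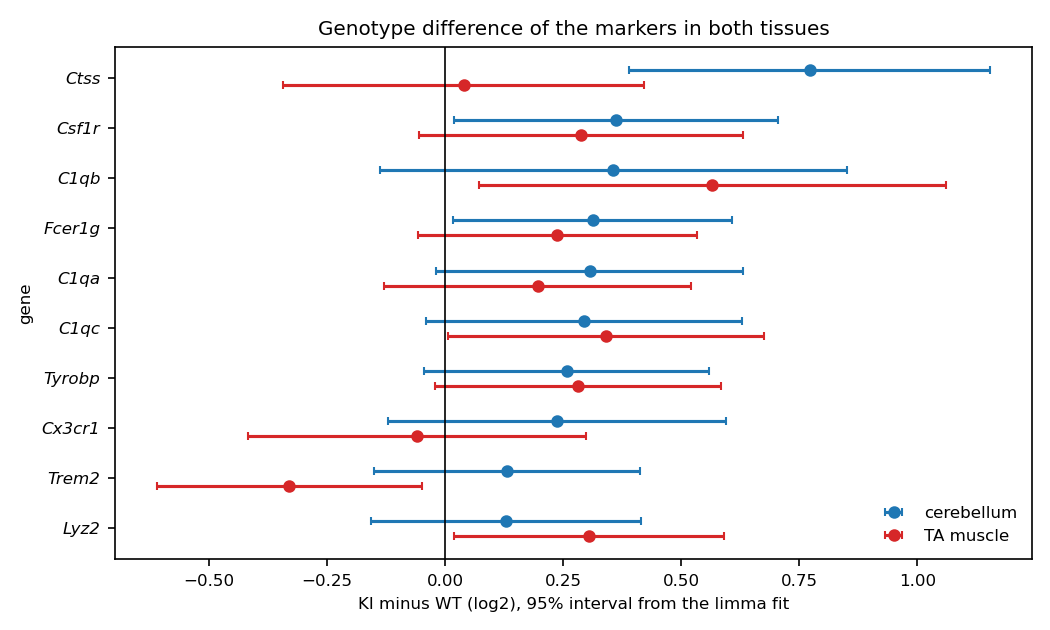
KI minus WT log2 difference (horizontal axis) of each marker in cerebellum (blue) and TA muscle (red), with 95% intervals from the limma fit to all 8 arrays. All 10 cerebellum points lie above 0, 8 of the 10 muscle points do, and Trem2 in muscle lies at -0.33.

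In muscle 8 of the 10 markers had higher means in KI and 2, Cx3cr1 and Trem2, lower ones. The differences ran from -0.33 to 0.57 (median 0.26, against 0.03 over all 13933 genes tested). None was called (limma, smallest adjusted p = 0.185), where 3.55% of all genes were, and 4 had an unadjusted p under 0.05, as had 20.3% of all genes. Both KI arrays were above both WT arrays in 5 markers and below them in 1, where 30.3% and 19.9% of all genes were so placed, and over all genes 55% had a higher mean in KI.

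C1qb had the largest muscle difference, with 6.99 and 6.49 on the KI arrays 94 and 97 against 5.87 and 6.47 on the WT arrays 95 and 96. The higher WT array nearly reached the lower KI array, and the arrays of each genotype were far apart. Its means were 6.74 ± 0.35 in KI and 6.17 ± 0.42 in WT (SD, n = 2; difference 0.57 ± 0.22, SE; 1.48-fold; adjusted p = 0.194). Without KI replicate 94 the difference was 0.318, without WT replicate 95 0.268 and without WT replicate 96 0.864. C1qc was at 6.33 and 6.10 in KI and 5.83 and 5.92 in WT (0.34 ± 0.15; adjusted p = 0.240), with a difference of 0.225 without KI replicate 94. C1qa was at 6.15 and 6.19 in KI, but WT replicate 95 was as high, at 6.19, and WT replicate 96 was at 5.76 (0.20 ± 0.14; adjusted p = 0.486). Without WT replicate 96 the C1qa difference turned to -0.02, so its direction in muscle rested on that array, and without WT replicate 95 it was 0.411.

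Trem2 was the marker whose muscle values ran the other way. It was at 5.62 and 5.75 on the KI arrays and at 6.07 and 5.96 on the WT arrays. Both KI arrays were the lowest of all 8 for this gene. The means were 5.68 ± 0.10 in KI and 6.01 ± 0.08 in WT (SD, n = 2; difference -0.33 ± 0.12, SE; 95% interval -0.61 to -0.05; adjusted p = 0.185), and over 15 alternatives it lay between -0.40 and -0.26. Its partner Tyrobp was at 6.44 and 6.24 in KI and 6.20 and 5.92 in WT, a difference of 0.28 ± 0.13 with no overlap (adjusted p = 0.278), which was 0.181 without KI replicate 94 and 0.143 without WT replicate 96.

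Of the other receptor genes, Fcer1g was at 5.98 and 6.02 in KI muscle and at 5.95 and 5.57 in WT (0.24 ± 0.13, SE; adjusted p = 0.344), a difference of 0.426 without WT replicate 95 and 0.05 without WT replicate 96. Csf1r was at 6.63 on KI replicate 94, while KI replicate 97, at 6.16, lay between the WT arrays at 6.17 and 6.05 (0.29 ± 0.15; adjusted p = 0.326). Its difference was 0.0505 without KI replicate 94 and 0.524 without KI replicate 97. Cx3cr1 was at 5.71 and 5.73 in KI, inside the WT range of 5.56 to 6.01 (-0.06 ± 0.16; adjusted p = 0.879), and its sign turned to 0.17 without WT replicate 96, against -0.285 without WT replicate 95. The enzymes differed from each other too. Lyz2 was at 8.29 and 8.31 in KI and 8.13 and 7.86 in WT (0.31 ± 0.13; adjusted p = 0.221; 0.172 without WT replicate 96), whereas Ctss was at 5.72 and 5.22 in KI, on both sides of WT arrays that were both at 5.43 (0.04 ± 0.17; adjusted p = 0.930). Without KI replicate 94 the Ctss difference in muscle was -0.21, and without KI replicate 97 it was 0.291.

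Relative to the mean of the 4 muscle arrays, the 10 markers averaged 0.18 higher on KI replicate 94 (8 of 10 above) and 0.01 higher on KI replicate 97 (6 of 10 above), against -0.07 and -0.12 on the WT arrays. In cerebellum both KI arrays stood above, at 0.20 and 0.12, and both WT arrays below, at -0.15 and -0.17. C1qb, C1qc, Tyrobp and Fcer1g were the 4 markers with both KI arrays above both WT arrays in both tissues. This was seen in 4.55% of the 12866 genes tested in both. Each of the 4 was separated only narrowly in 1 tissue. In muscle the lower KI and higher WT arrays were at 6.489 and 6.469 for C1qb. They were at 6.240 and 6.197 for Tyrobp and at 5.975 and 5.946 for Fcer1g. For C1qc in cerebellum they were at 6.111 and 6.109.

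The difference between the genotype effects, muscle minus cerebellum, was tested directly. It was called in none of the 10 markers (limma, smallest adjusted p = 0.258) and in 0.143% of all 14708 genes tested, and 2 had an unadjusted p under 0.05, as had 13.8% of all genes. For Ctss the effect in muscle was lower than in cerebellum by 0.73 ± 0.24 (log2, SE; 95% interval of the signed difference -1.27 to -0.19; adjusted p = 0.258). For Trem2 the signed difference was -0.46 ± 0.18 (interval -0.86 to -0.06; adjusted p = 0.309). In the other 8 markers it ran from -0.30 for Cx3cr1 to 0.21 for C1qb with adjusted p from 0.563 to 0.966, and its sign changed in 6 of them (C1qa, C1qb, C1qc, Csf1r, Tyrobp and Fcer1g) when 1 array was left out.

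**Figure D3:**
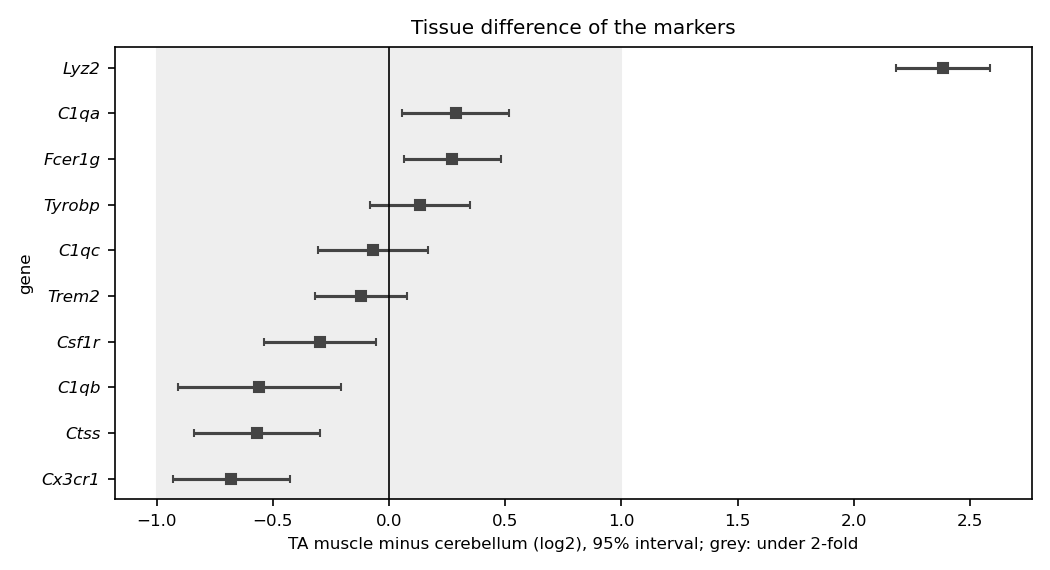
TA muscle minus cerebellum (log2, horizontal axis) of each marker, means of both genotypes, with 95% intervals from the limma fit; the grey band holds changes under 2-fold. Lyz2, at 2.39, lies outside the band, and Cx3cr1, at -0.68, is the lowest.

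Between tissues Lyz2 was the marker that was called, 1 of 10, where 26% of all genes were. It was 5.23-fold higher in muscle, at 8.30 ± 0.01 in KI and 8.00 ± 0.19 in WT muscle against 5.83 ± 0.15 and 5.70 ± 0.04 in KI and WT cerebellum (SD, n = 2; difference 2.39 ± 0.09, SE; adjusted p = 8.83e-09). Cx3cr1 was lower in muscle (-0.68 ± 0.11, adjusted p = 0.000385), with a change under 2-fold. For both genes the tissues did not overlap, Lyz2 being higher in muscle on every array, as were 31.6% of all genes, and Cx3cr1 lower, as were 33.2%. Adjusted p was under 0.05 in 7 of the 10, against 72.3% of all genes. That count was 4 to 6 with 1 array left out and 3 with the WT arrays only, where Csf1r, C1qa and Fcer1g were among those lost. C1qb (-0.56 ± 0.16, adjusted p = 0.00903), Ctss (-0.57 ± 0.12, 0.00188) and Csf1r (-0.30 ± 0.11, 0.0313) were lower in muscle, while C1qa (0.29 ± 0.10, 0.0289) and Fcer1g (0.27 ± 0.09, 0.0241) were higher, each with overlap between the tissues. Without WT muscle replicate 95 the tissue differences of C1qa and Fcer1g were both 0.178, and without KI muscle replicate 97 that of Csf1r was -0.179. With the WT arrays only, the tissue difference of Ctss was -0.20 (adjusted p = 0.125). C1qc (-0.07 ± 0.11, SE; adjusted p = 0.574), Trem2 (-0.12 ± 0.09; 0.245) and Tyrobp (0.13 ± 0.09; 0.232) did not pass, and for Trem2 the sign turned to 0.11 with the WT arrays only.

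The order of the 4 groups therefore differed from gene to gene. C1qb and Ctss were highest in KI cerebellum, then WT cerebellum, KI muscle and WT muscle. In both genes KI cerebellum stood apart from WT cerebellum, and WT cerebellum overlapped KI muscle. The muscle groups overlapped in Ctss and not in C1qb. Csf1r ran from KI cerebellum to KI muscle, WT cerebellum and WT muscle, with the middle pair overlapping. C1qa, Lyz2, Tyrobp and Fcer1g had their highest mean in KI muscle and their lowest in WT cerebellum. Cx3cr1 was highest in KI cerebellum and lowest in KI muscle, where it overlapped WT muscle, and Trem2 was highest in KI cerebellum and separately lowest in KI muscle.

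Further markers were read from lists. Of 19 other genes of macrophages and microglia, 17 were tested in muscle, where 1 was called: Ly86 (MD-1, partner of the receptor RP105) rose in KI muscle, at 6.18 and 6.02 against 5.30 and 5.32 in WT (0.79 ± 0.11, SE; adjusted p = 0.00806). Both KI arrays were far above both WT arrays. The call was lost without KI muscle replicate 94 or WT muscle replicate 95 (adjusted p from 0.0509 to 0.0514). Of the 17, 15 had higher means in KI (median 0.21) and 10 were without overlap above, where 3.55% of all genes were called, 55% were higher and 30.3% were without overlap above. Adgre1 and Mpeg1, counted in the 15 and in the 10, passed the filter through the KI arrays alone. A higher KI value was thus a condition of their being tested, and their place in these counts gives no support. In cerebellum 10 of the 19 were tested and none was called, where 0.205% of all genes were. Of the 10, 2 had an unadjusted p under 0.05 (limma), as had 5.33% of all genes. Means were higher in KI in 9 (median 0.22) and 5 were without overlap above, where 47.5% and 15.3% of all genes were. Among the 9 were Ly86 (0.26 ± 0.11, adjusted p = 0.895) and the Fc receptor Fcgr3 (0.24 ± 0.10, 0.916).

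Genes enriched in microglia went both ways between the tissues: of 8 tested, 4 had higher and 4 lower means in muscle (median -0.11). Olfml3 (0.76 ± 0.19, SE; adjusted p = 0.00546) and Fcrls (0.53 ± 0.13; 0.00442) were higher in muscle without overlap, and P2ry12, P2ry13 and Siglech were lower without overlap. These 5 were singled out after their values were seen. P2ry12, P2ry13 and Siglech did not pass the filter on low values in muscle, and Fcrls did not pass it in cerebellum. Each of these genes entered through the tissue where it was higher, so the size of its difference is uncertain and its test gives no support. None of the 9 named genes was called between genotypes in either tissue. In muscle 2 of 5 tested and in cerebellum 1 of 7 had an unadjusted p under 0.05 (limma). Of all genes tested there, 20.3% and 5.33% did, and 3.55% and 0.205% were called. P2ry12 was at 5.27 and 5.30 in KI and 5.52 and 5.30 in WT cerebellum (-0.12 ± 0.17, SE; adjusted p = 0.9996), while Slc2a5, the fructose transporter of microglia, was at 5.01 and 5.17 against 4.61 and 4.83 (0.37 ± 0.12; 0.716). In muscle Fcrls had a difference of 0.57 ± 0.18 (0.124). Slc2a5 in both tissues and Fcrls in muscle passed the filter through the KI arrays alone, so a higher KI value was a condition of their being tested. Of 10 genes of resident and perivascular macrophages, 8 were tested in muscle and 3 in cerebellum, so 5 entered through muscle alone. The 3 tested in both, Cbr2, Stab1 and Lyve1, were higher in muscle without overlap, as were 31.6% of all genes (1.23 ± 0.14, 0.80 ± 0.11 and 0.67 ± 0.14, SE). Mrc1, the mannose receptor CD206, was at 6.41 and 6.39 in KI muscle and 5.68 and 5.996 in WT muscle (0.56 ± 0.14, adjusted p = 0.0569), and Cbr2 differed between genotypes there by 0.51 ± 0.20 (0.191). No gene of that list was called between genotypes, beside the same shares of all genes. At an unadjusted p under 0.05 (limma) were 2 of 8 in muscle and 0 of 3 in cerebellum. In cerebellum Lyve1 was at 0.33 ± 0.19 (adjusted p = 0.998).

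The ligands of the receptors were measured as well. For the lists of this paragraph, the shares of all genes called were 3.55% in muscle and 0.205% in cerebellum. The shares at an unadjusted p under 0.05 (limma) were 20.3% and 5.33%. Cx3cl1, fractalkine, was at 7.98 and 8.06 in KI and 7.94 and 7.57 in WT cerebellum (0.27 ± 0.17, SE; adjusted p = 0.998), and at 5.32 and 5.80 in KI and 6.01 and 6.03 in WT muscle (-0.46 ± 0.17; 0.181). Its arrays did not overlap in either tissue, with KI above WT in cerebellum (15.3% of all genes) and below it in muscle (19.9%). Those of Il34 were placed likewise. Csf1 differed by 0.18 ± 0.19 in cerebellum and 0.0023 ± 0.19 in muscle, and Il34 by 0.16 ± 0.11 and -0.15 ± 0.11, with none of the 3 called (limma; 1 in muscle and 0 in cerebellum at an unadjusted p under 0.05). Among 13 genes of ITAM signalling, none of 7 tested in muscle or 4 in cerebellum was called (1 and 0 at an unadjusted p under 0.05). Plcg2, a phospholipase below Trem2, had -0.36 ± 0.15 in muscle (adjusted p = 0.222) and the adaptor Lat2, which passed the filter through the KI arrays alone, had 0.27 ± 0.17 in cerebellum (0.998). Of 10 further complement genes, none of 8 tested in muscle or 4 in cerebellum was called (1 in each at an unadjusted p under 0.05), and C3ar1, the receptor for the C3a fragment, differed by 0.29 ± 0.13 in muscle (0.240) and 0.35 ± 0.13 in cerebellum (0.772), without overlap in both.

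Lgmn, the lysosomal protease legumain that matures cathepsins, was the 1 gene called among 10 further cathepsins and cystatins. Among all genes tested in muscle, 3.55% were called. Lgmn rose in KI muscle, at 8.32 and 8.34 against 7.43 and 7.63 (0.80 ± 0.13, SE, limma adjusted p = 0.0161). Without KI muscle replicate 94, KI muscle replicate 97 or WT muscle replicate 95 the call was lost (adjusted p from 0.0686 to 0.0995) while the difference stayed between 0.70 and 0.81. In cerebellum its difference was 0.04 ± 0.13. Ctsc, a cathepsin of immune cells, had the smallest p of that list in cerebellum (0.48 ± 0.22, adjusted p = 0.934), with KI replicate 94 above the other 3 arrays, which lay between 4.97 and 5.47. Of 13 genes tied to disease-associated microglia, none was called in 10 tested in muscle or 8 tested in cerebellum. In muscle 1 and in cerebellum 0 had an unadjusted p under 0.05 (limma), where 20.3% and 5.33% of all genes did. The chemokine Ccl6 differed by 0.57 ± 0.15 in muscle (adjusted p = 0.0845). Apoe, a ligand of Trem2 singled out here after its values were seen, differed by 0.01 ± 0.13 in muscle and -0.07 ± 0.13 in cerebellum. The cytokine genes Tnf, Il1b, Il1a and Il6 did not pass the filter on low values in either tissue. Of 12 inflammatory cytokines and chemokines, 4 were tested per tissue and none was called. In muscle 1 and in cerebellum 0 had an unadjusted p under 0.05 (limma), beside the same 20.3% and 5.33% of all genes. Ccl5 was at 0.28 ± 0.12 in muscle (0.240) and 0.26 ± 0.12 in cerebellum (0.938).

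**Figure D4:**
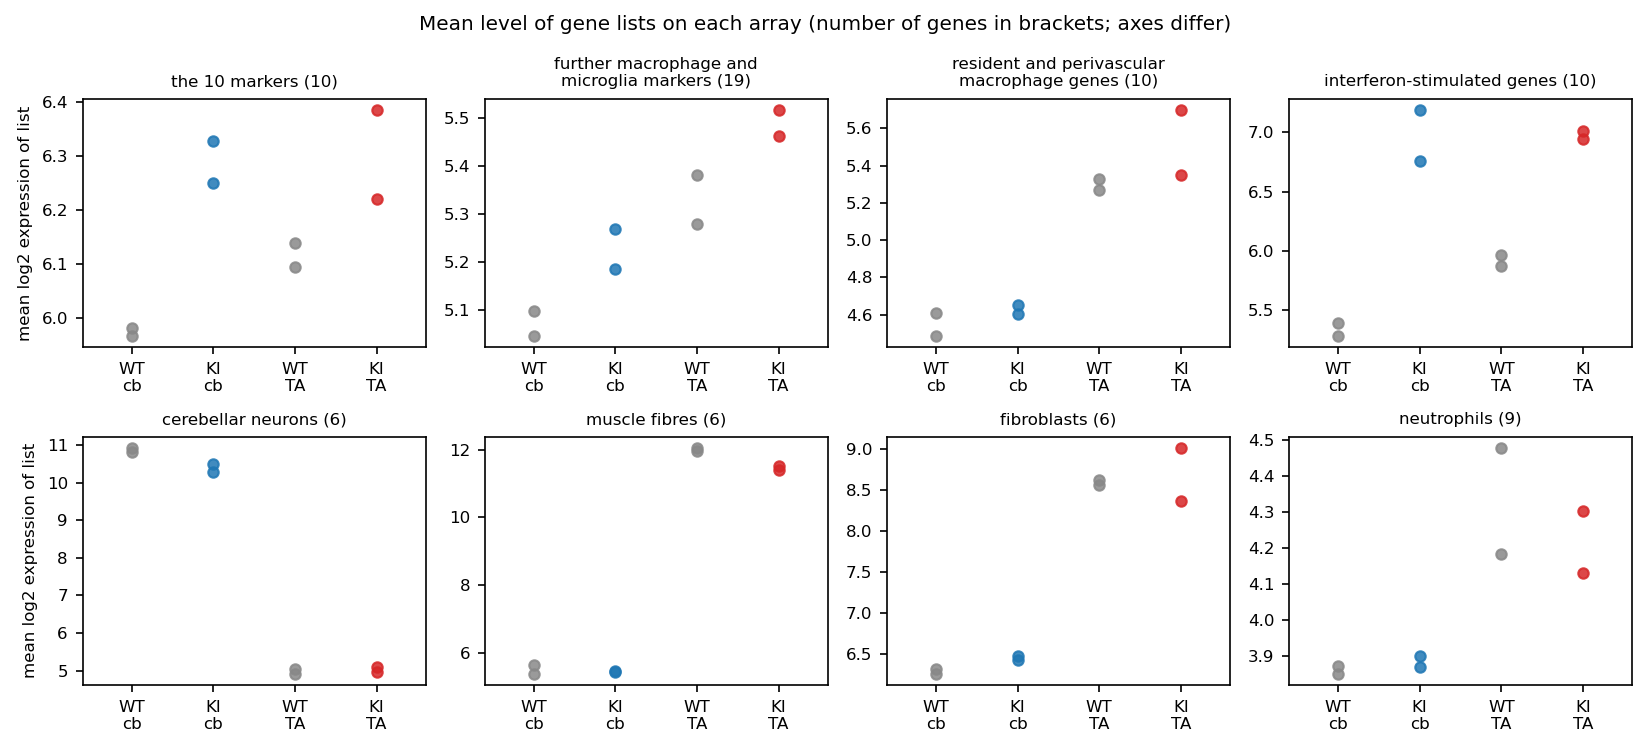
Mean log2 expression (vertical axes, which differ) of 8 gene lists on each of the 8 arrays, with 1 point per array and the number of genes in brackets. The interferon-stimulated genes lie between 6.76 and 7.19 in KI cerebellum against 5.29 and 5.39 in WT, and the cerebellar neuron genes between 10.29 and 10.50 against 10.83 and 10.93.

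Other gene groups moved with genotype on the same arrays. Of 10 interferon-stimulated genes, 8 were called higher in KI muscle and 7 in KI cerebellum. Of all genes, 3.55% and 0.205% were called in either direction. All 10 were higher in KI and without overlap in both tissues, where 30.3% and 15.3% of all genes were (median differences 1.16 and 1.85). In cerebellum Ifit1, Rsad2 and Rtp4 passed the filter through the KI arrays alone, so a higher KI value was a condition of their being tested. All 3 are counted in the 10 there, and Ifit1 and Rtp4 in the 7 called, so their place in these counts gives no support. Without 1 array of the tissue the number called was 2 to 4 in muscle and 2 or 3 in cerebellum. The mean level of the 10 interferon-stimulated genes was 7.19 on KI cerebellum replicate 94 and 6.76 on replicate 97. That of the 10 markers was 6.33 and 6.25. The order of these 2 arrays differed between lists. Choroid plexus genes were at 8.11 and 7.54, and the further macrophage and microglia markers ran the other way, at 5.19 and 5.27. All 6 genes of cerebellar neurons had lower values on both KI cerebellum arrays than on both WT arrays (20% of all genes did). None was called, where 0.205% of all genes were, and 3 had an unadjusted p under 0.05 (limma), as had 5.33%. Pcp2, a Purkinje cell gene, was at -0.89 ± 0.17 (adjusted p = 0.148) and Calb1, the calcium buffer calbindin of Purkinje cells, at -0.57 ± 0.13 (0.310). All 6 genes of muscle fibres were lower on both KI muscle arrays than on both WT arrays (19.9% of all genes were). Among them, Actn3, the fast-fibre actinin, fell by 0.60 ± 0.13 (adjusted p = 0.0372), a call lost in 9 of 15 alternatives. Genes of fibroblasts averaged 9.01 on KI muscle replicate 94 and 8.36 to 8.62 on the other muscle arrays, and those of resident macrophages 5.70 there and 5.27 to 5.35 elsewhere in muscle. The part of these groups in the values of the 10 markers was not tested.

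Genes of other blood cells were read as well. Of 9 neutrophil genes, 1 to 3 were at or above the 40th percentile on any array, and the list averaged 3.85 to 3.90 in cerebellum and 4.13 to 4.48 in muscle, with no KI muscle array above the higher WT array. Of 6 T cell genes 2 were above that percentile on every array, and of 4 B cell genes 1 or 2. Of these lists, 3 neutrophil genes were tested in muscle and 2 in cerebellum, and 2 T cell and 2 B cell genes in each tissue. None of the tested genes was called between genotypes (limma, with 1 T cell gene in muscle at an unadjusted p under 0.05). Mast cell, endothelial, fibroblast, choroid plexus, astrocyte, oligodendrocyte, erythroid and satellite cell lists held no called gene among those tested in either tissue. Some lists were tested in part: 4 mast cell genes in muscle and 1 in cerebellum, and 4 and 2 satellite cell genes. Both matched erythroid genes were at or above the 40th percentile on every array. Of 5 mast cell genes, 1 was so on every cerebellum array and 3 or 4 on each muscle array. In muscle 1 gene in each of the mast cell, fibroblast, astrocyte and erythroid lists had an unadjusted p under 0.05 (limma), and 0 in cerebellum. Over all genes tested, 20.3% in muscle and 5.33% in cerebellum had such a p, and 3.55% and 0.205% were called.

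The genes whose values were most like those of the 10 markers were taken from 12856 others tested in both tissues, by Pearson correlation with the markers' mean over the 8 arrays after removing each tissue's mean. They were Herc6 (r = 0.981), an interferon-induced ubiquitin ligase, Yipf3 (0.976), a Golgi protein, Sema3b (0.969), a semaphorin, Plcd1 (0.967), a phospholipase C, and Ube2l6 (0.966), the conjugating enzyme of ISG15. These r values are a description over 8 arrays that share tissue, genotype and normalisation. None of the 5 was called; Herc6 differed by 0.83 in cerebellum (adjusted p = 0.118) and 0.60 in muscle (0.0651). By the same measure Csf1r followed the mean of the other 9 markers most closely (r = 0.921), Ctss next (0.820), Cx3cr1 hardly (0.116), and Trem2 ran against it (-0.33).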

How the data were processed

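The deposited values are on the log2 scale, from GCOS and RMA (background correction, normalisation and summary of probes) per the submitters' processing notes. No source used here gives versions, a genome build or the set of arrays that RMA took together. Of 35556 probe sets, 21789 carry 1 gene symbol in the platform annotation, 1621 several and 12146 none. The brightest probe set stood for a gene, and probe sets with several or no symbols were not used.

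Values were tested with limma 3.58.1 in R 4.3.3 (lmFit, eBayes), with 1 mean per group over 8 arrays. Testing in a tissue required that 2 or more of the 4 arrays reach the 40th percentile of their own array. The number of arrays limits the precision. The code was tested on simulated data. The 10 markers and all gene lists were chosen with earlier results of these data known. From each other list, up to 3 called genes were named in a tissue, or else the 2 with the smallest p, and 177 of 192 list genes were matched.

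Alternatives changed the filter, the probe set rule, the normalisation, the variance model, the threshold and the arrays used. The title numbers recur in both tissues. Same-numbered arrays were not taken as pairs, because no source used here says that the numbers are animals. Deviations of same-numbered arrays correlated at 0.06 in KI and -0.14 in WT over 12866 genes. Array noise or variation within a tissue could hide a shared animal, so these values cannot settle the pairing. No search of protein sequences was run.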

Additional observations from a re-analysis of the deposited data

How the results depend on the processing

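With 2 arrays a group, a difference of the size seen for Ctss in cerebellum did not pass the adjustment over 13641 genes, and its adjusted p lay between 0.0956 and 0.9998 over 15 alternatives. Under every alternative run, 0 markers were called in muscle, in cerebellum and in the difference of the genotype effects, and Lyz2 was the 1 marker called between tissues. All 10 markers had a difference above 0 in cerebellum under every alternative; in muscle 8 did, or 7 without KI muscle replicate 94, and without WT muscle replicate 96 the 8 were not the same genes. Over all genes the muscle count of 495 fell to 246 with no filter and 155 with muscle arrays alone, was 995 at an adjusted p under 0.1, and was 108 to 393 with 1 array left out. The cerebellum count of 28 was 18 with no filter and 3 to 29 with 1 array left out. The count of 21 for the difference of the effects was 63 with trended and robust variances, 3 with no filter, 108 at an adjusted p under 0.1 and 0 to 16 with 1 array left out. The replicate block, with the title number as a block, left 1 marker called between tissues and 0 in the difference of the effects (14 genes in all); crossing the WT numbers, an alternative chosen after seeing the data, also gave 1 and 0 (3 genes in all), and neither block changed a marker's call. The sign turned in muscle for C1qa (-0.0201) and Cx3cr1 (0.166) without WT muscle replicate 96 and for Ctss (-0.213) without KI muscle replicate 94, with ranges over the arrays left out of -0.0201 to 0.411, -0.285 to 0.166 and -0.213 to 0.291. Between tissues it turned for C1qc (0.0475 when quantile normalised once more, -0.143 to 0.0068 with 1 array left out) and for Trem2 (0.11 with WT arrays only). In the difference of the effects, leaving out 1 array turned the sign of 6 markers. The ranges over all arrays left out were -0.33 to 0.11 for C1qa, -0.0876 to 0.508 for C1qb, -0.104 to 0.197 for C1qc, -0.31 to 0.16 for Csf1r, -0.11 to 0.16 for Tyrobp and -0.26 to 0.11 for Fcer1g. The cause of these changes was not tested.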
